A study of Sus scrofa with 12 samples.

Results

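The 5 genes described here act in protein folding and protein degradation, and they were followed in pig heart after left ventricular pressure overload (LVPO). HSPA4, HSPA14 and DNAJB6 are chaperones or co-chaperones, FBXO32 is a ubiquitin ligase subunit of muscle, and PSMD14 is a proteasome subunit. They were selected by symbol from the 516 genes that the authors list with an unadjusted p under 0.05 for LVPO against control, so the difference between the groups was known when they were chosen. The differences below are therefore a description and carry no test of their own. The LVPO group was produced by progressive occlusion of a cuff around the ascending aorta and was studied at 5 weeks, and the other group is described as age- and weight-matched referent controls. The series text counts 9 LVPO pigs and 6 control pigs, and 6 libraries of each group were analysed here. No strain, sex, age or heart chamber is given in the labels, and the cuff treatment is written for control samples as well, so the groups follow the group label. Each sample has its own identifier as its title, that of control replicate 5 starting with another letter than the rest, but the labels do not say that each is a separate pig. The spread given below is that between libraries.

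Chaperones of the HSP70 family bind unfolded stretches of protein in a cycle driven by ATP. J-domain proteins bring them substrates and start ATP hydrolysis, and HSP110 proteins such as HSPA4 release the ADP so that the cycle can restart. Proteins that are to be removed are tagged with ubiquitin by ligases, which in muscle include the F-box protein FBXO32 (atrogin-1, also called MAFbx), and are broken down by the proteasome, where PSMD14 cuts the ubiquitin chain off the substrate. In heart muscle both arms turn over the sarcomere and other long-lived proteins.

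HSPA4, HSPA14, DNAJB6 and PSMD14 were listed as higher in LVPO and FBXO32 as lower. Expression is given as deposited in CPM, read counts scaled to the size of the library. The higher genes had ratios of group means between 1.23 and 1.26, and FBXO32 had a ratio of 0.526. The authors list 3.39% of the 15235 genes that their p-values imply were tested, 0.926% as higher and 2.46% as lower. Because listing is how these genes were found, nothing is read from their place in that share. None of the 5 is among the 0.0394% of tested genes with an adjusted p under 0.05 in the authors' deposited table, which gives FBXO32 an adjusted p of 0.817 and each of the other 4 genes one of 1. The limma test used below for estimates and their errors called 0 genes of the table in either direction after adjustment over 15235 genes. Before adjustment, 456 of the 512 genes fitted had a limma p under 0.05, which is circular because each was listed on the same libraries. In tissue RNA, fewer cells of a type and less RNA per cell cannot be told apart.

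**Figure D1:**
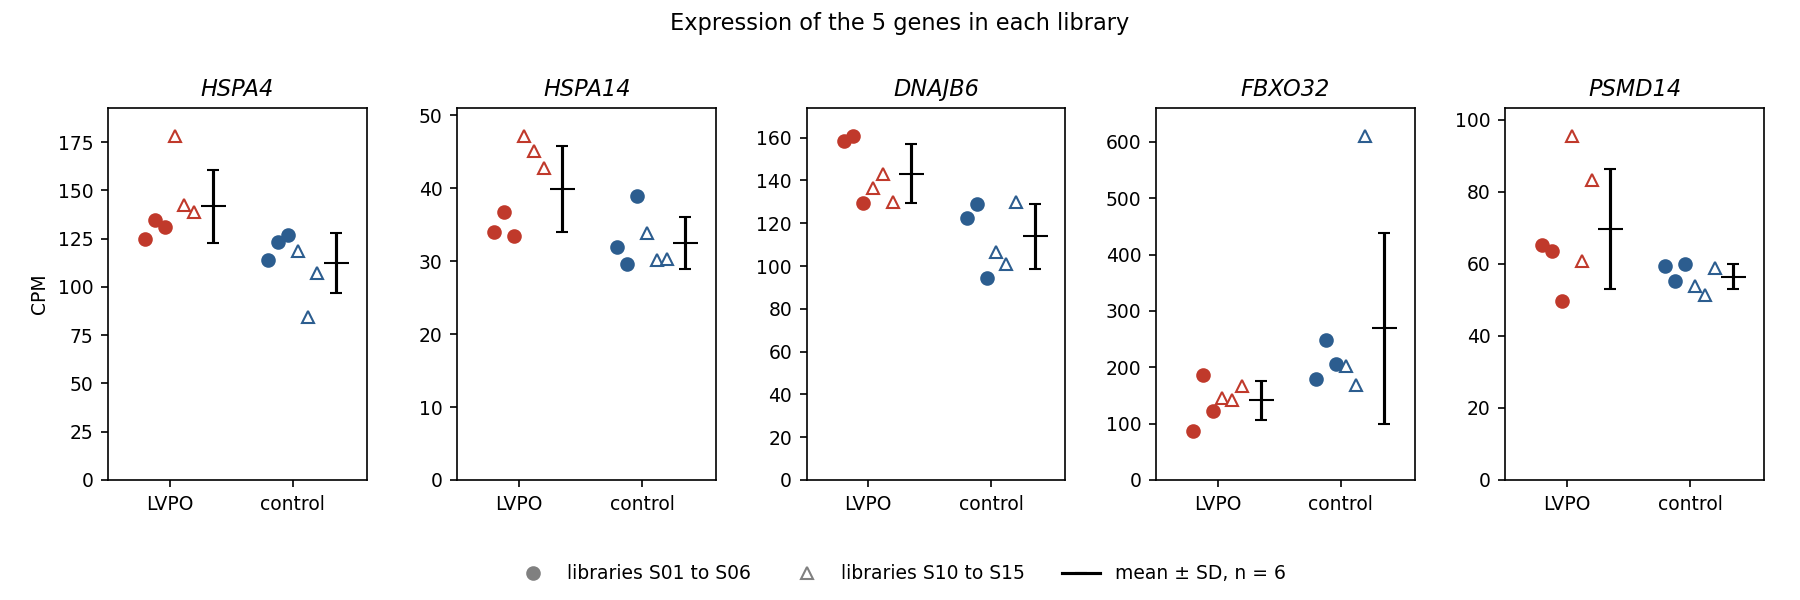
CPM of each gene in each library, with LVPO at the left of each panel and control at the right. Filled circles are libraries S01 to S06, open triangles libraries S10 to S15, and bars are the mean ± SD of 6 libraries. One FBXO32 control lies at 611 CPM, far above the other 5.

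HSPA4 is an HSP110-type chaperone and a nucleotide exchange factor of HSP70. Its LVPO libraries had a lowest value of 125, a median of 137 and a highest value of 178 CPM, against 84.4, 116 and 127 CPM in controls. The groups overlapped by a narrow margin, with 5 of 6 LVPO libraries above every control. The mean was 142 ± 19.0 CPM in LVPO and 112 ± 15.4 CPM in controls (SD, n = 6 each), a difference in log2(CPM + 1) of 0.33 ± 0.12 (SE, from limma). LVPO replicate 4, at 178 CPM, was the highest library, and control replicate 5, at 84.4 CPM, was the lowest.

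HSPA14 is an HSP70-like protein that works with the J-domain protein DNAJC2 at the ribosome, where nascent chains are folded. It had a lowest value of 33.5, a median of 39.7 and a highest value of 47.2 CPM in LVPO, against 29.5, 31.1 and 39.0 CPM in controls. The LVPO libraries did not form a single cloud. Replicates 4, 5 and 6 stood at 47.2, 45.2 and 42.7 CPM, above every control, while replicates 1, 2 and 3 stood at 34.0, 36.7 and 33.5 CPM, among the controls. Means were 39.9 ± 5.91 CPM in LVPO and 32.5 ± 3.55 CPM in controls (SD, n = 6 each), a log2 difference of 0.28 ± 0.12 (SE).

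DNAJB6 is a J-domain co-chaperone that holds aggregation-prone proteins in solution, and mutations in the human gene cause a limb-girdle muscular dystrophy. Its lowest, median and highest values were 129.5, 139.7 and 161 CPM in LVPO, against 94.6, 114 and 129.96 CPM in controls. Again 5 of 6 LVPO libraries lay above every control, and the remaining one missed the highest control by a margin of less than 1 CPM. The mean was 143 ± 13.8 CPM in LVPO and 114 ± 15.2 CPM in controls (SD, n = 6 each), a log2 difference of 0.33 ± 0.11 (SE).

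PSMD14 (Rpn11 in yeast) is the metalloprotease of the regulatory particle of the proteasome. In LVPO its lowest value was 49.7, its median 64.3 and its highest 95.6 CPM, against 51.3, 56.9 and 60.0 CPM in controls. Of the LVPO libraries, 5 were above every control and replicate 3 was below every control. Variation was larger in LVPO, with a coefficient of variation of 24.0% against 6.23% in controls. The mean was 69.6 ± 16.7 CPM in LVPO and 56.4 ± 3.52 CPM in controls (SD, n = 6 each), and the log2 difference was 0.27 ± 0.14 (SE), or 0.17 without LVPO replicate 4. PSMD14 was the gene nearest to the limit of the list among the 5, at rank 515 of 516 with an unadjusted p of 0.0499 in the authors' deposited table. FBXO32 ranked 58, HSPA4 147, DNAJB6 326 and HSPA14 385, and genes just outside the limit were not analysed here.

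FBXO32 is the substrate-binding F-box subunit of an SCF ubiquitin ligase that is made in striated muscle. Its LVPO libraries had a lowest value of 86.4, a median of 144 and a highest value of 187 CPM, against 168, 204 and 611 CPM in controls. LVPO libraries were below every control in 5 of 6 cases, and LVPO replicate 2, at 187 CPM, lay among the controls. Control replicate 6 was 3.05 times the mean of the other 5 controls and 2.46 times the next highest. The mean was 141 ± 34.8 CPM in LVPO and 269 ± 170 CPM in controls (SD, n = 6 each), a ratio of 0.526. Without control replicate 6 the control mean was 201 ± 30.8 CPM (SD, n = 5) and the ratio was 0.705. The log2 difference was -0.80 ± 0.27 (SE) with all libraries and -0.53 without that control.

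For 0 of the 5 genes were the LVPO and control libraries fully separate, and 9.69% of all listed genes had groups that did not overlap. The authors' log2 fold changes placed the 4 higher genes at ranks 109 to 123 of the 141 genes listed as higher, counted from the largest change, and FBXO32 at rank 39 of the 375 listed as lower. FBXO32 thus had a log2 fold change of -0.93 in the authors' deposited table, and the other 4 had values from 0.29 to 0.33.

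**Figure D2:**
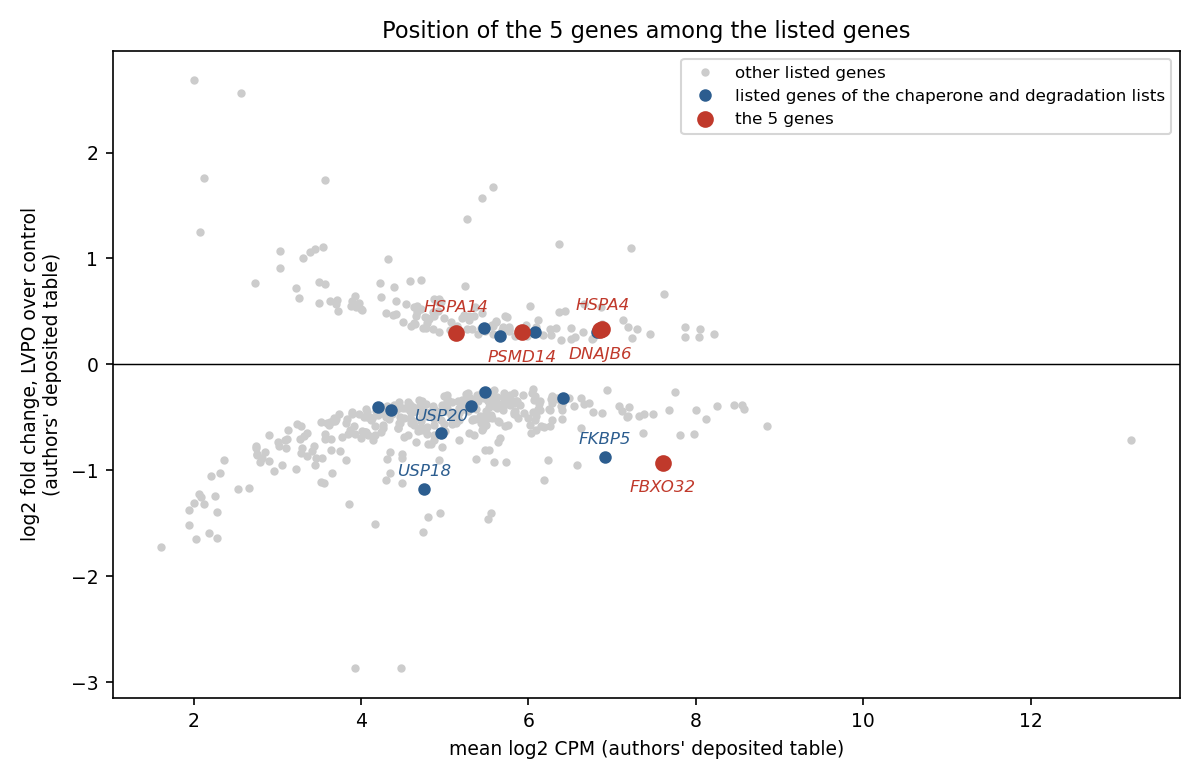
Each point is one of the 516 listed genes, placed by the mean log2 CPM on the horizontal axis and the log2 fold change of LVPO over control on the vertical axis, both from the authors' deposited table. The 5 genes are red and the other listed genes of the chaperone and degradation lists are blue. FBXO32 lies at -0.93, and HSPA4, HSPA14, DNAJB6 and PSMD14 lie close to the inner edge of the higher genes.

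The libraries carry the numbers S01 to S06 (replicates 1 to 3 of each group) and S10 to S15 (replicates 4 to 6), and for 3 of the 4 higher genes the group difference was larger in the second series. What separates the series is not stated in the labels. For HSPA4 the log2 difference was 0.10 ± 0.11 in S01 to S06 and 0.57 ± 0.18 in S10 to S15 (SE, 3 libraries a group). HSPA14 showed 0.059 ± 0.15 and 0.51 ± 0.17, and PSMD14 showed 0.021 ± 0.14 and 0.52 ± 0.19. DNAJB6 and FBXO32 had differences of similar size in both series, 0.38 ± 0.15 and 0.29 ± 0.16 for DNAJB6 and -0.73 ± 0.26 and -0.87 ± 0.41 for FBXO32.

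In CPM, HSPA4 averaged 130 ± 4.76 in LVPO and 121 ± 6.63 in controls of S01 to S06, and 153 ± 21.9 in LVPO and 103 ± 17.4 in controls of S10 to S15 (SD, n = 3 each). HSPA14 averaged 34.7 ± 1.73 in LVPO and 33.5 ± 4.90 in controls of the first series, and 45.0 ± 2.26 in LVPO and 31.4 ± 2.10 in controls of the second. PSMD14 averaged 59.4 ± 8.51 in LVPO and 58.2 ± 2.64 in controls of the first, and 79.8 ± 17.6 in LVPO and 54.6 ± 3.78 in controls of the second. Within S10 to S15, all 3 LVPO libraries of each of these genes were above all 3 controls. Within S01 to S06 this held for DNAJB6 and not for HSPA4, HSPA14 or PSMD14. Single libraries weigh in these means. The highest HSPA4 value (LVPO replicate 4, 178 CPM) and the lowest (control replicate 5, 84.4 CPM) both belong to S10 to S15. For PSMD14, LVPO replicate 4 was at 95.6 CPM in S10 to S15, and LVPO replicate 3 was at 49.7 CPM in S01 to S06.

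The gap between the series in this group difference (S10 to S15 minus S01 to S06) was itself tested, since the genes had not been chosen on it directly. Listing does depend on the spread within groups, which this gap enters. The test and the share of genes given with it therefore come from selected genes and are not independent of listing. It was 0.47 ± 0.21 for HSPA4, 0.45 ± 0.20 for HSPA14 and 0.50 ± 0.24 for PSMD14 on the log2 scale (SE), with limma adjusted p of 0.191, 0.195 and 0.210 over the 512 genes fitted. DNAJB6 had a gap of -0.09 ± 0.22 and FBXO32 of -0.14 ± 0.55, with limma adjusted p of 0.819 and 0.901. None of the 5 passed. Of all genes fitted, 0 passed the adjusted test, the smallest adjusted p was 0.0688, and 127 (24.8%) had an unadjusted limma p under 0.05. HSPA4 and HSPA14 were among these 127 genes and PSMD14 was not.

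**Figure D3:**
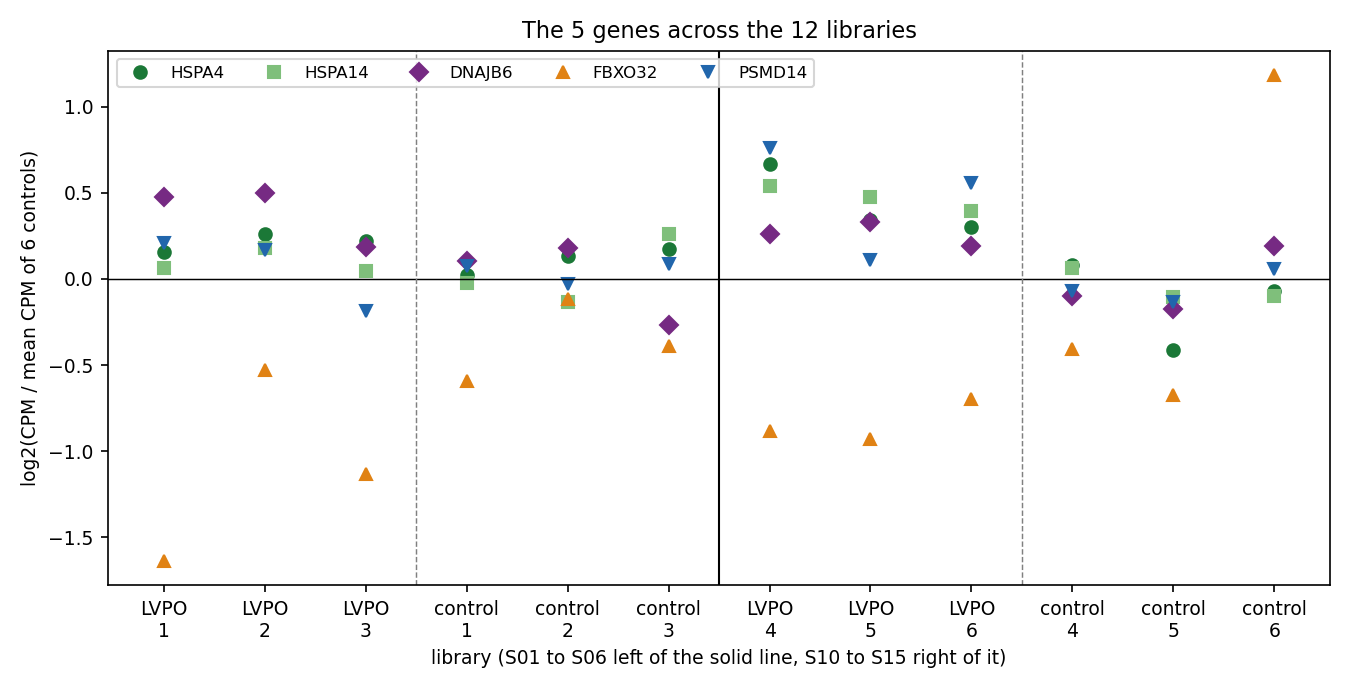
Expression of the 5 genes in each of the 12 libraries as log2 of CPM over the mean CPM of the 6 controls. Libraries S01 to S06 are left of the solid line and S10 to S15 right of it, and a dashed line separates LVPO from control within a series. HSPA4 and HSPA14 of LVPO replicates 4 to 6 lie above those of replicates 1 to 3, and FBXO32 of control replicate 6 lies above every other value.

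Both rescalings of the libraries that were run changed the size of the differences of the 5 genes and not their direction. Median-of-ratios factors computed on the listed genes gave log2 differences of 0.66 for HSPA4, 0.60 for HSPA14, 0.66 for DNAJB6, 0.59 for PSMD14 and -0.47 for FBXO32. Most listed genes are lower in LVPO, so these factors carry an upward shift that is built in. The median log2 difference of all 516 listed genes was -0.41 as deposited and -0.10 after this rescaling. Relative to that median the 4 higher genes stood at about the same distance before and after, and such factors do not show which scaling is right.

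**Figure D4:**
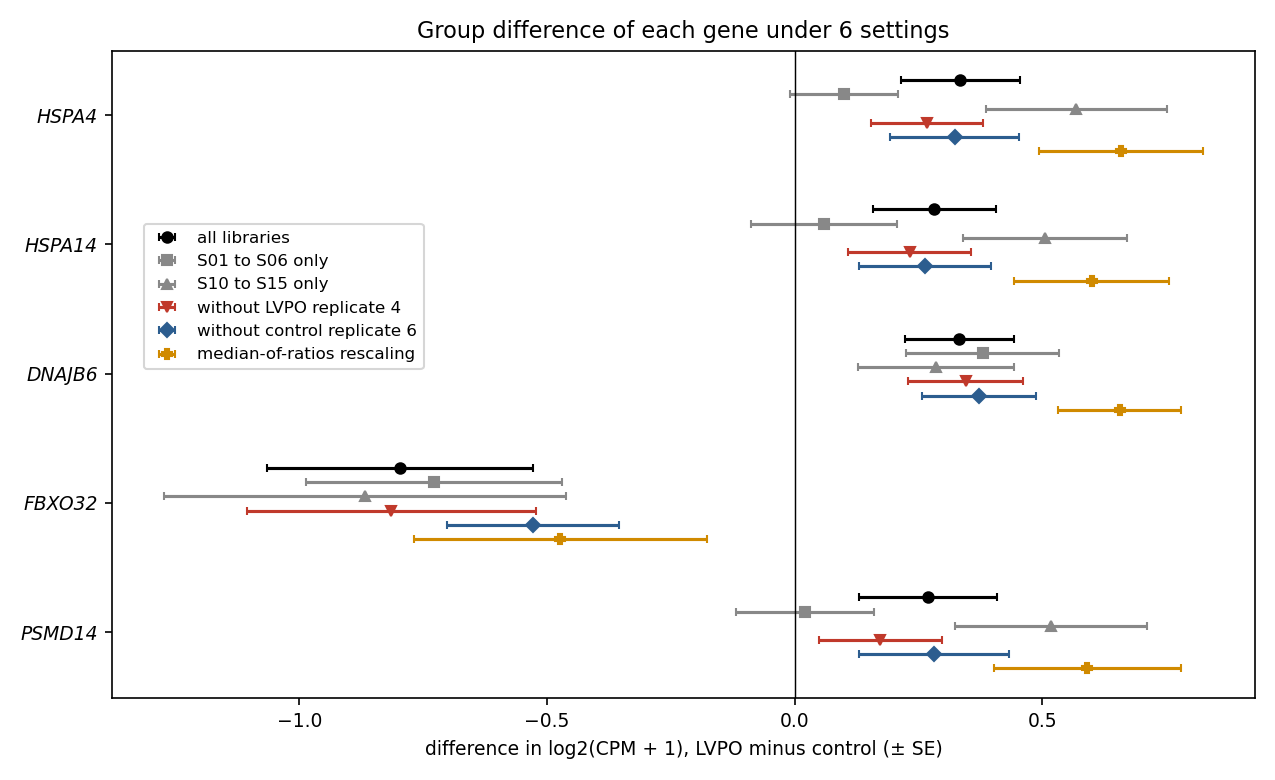
Difference in log2(CPM + 1) between LVPO and control for each gene, with bars of ± 1 SE, for all libraries, for each library series alone, without LVPO replicate 4, without control replicate 6, and after median-of-ratios rescaling. HSPA4, HSPA14 and PSMD14 lie between 0.021 and 0.10 in S01 to S06 and between 0.51 and 0.57 in S10 to S15.

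No pair of the 5 genes passed a test of correlation between libraries of one group. With 6 libraries, the smallest p of exact permutation is too large for a single pair to pass alone after adjustment over 20. This outcome therefore does not tell whether the genes vary together. Pearson and Spearman correlations of log2(CPM + 1) were computed for the 10 pairs of genes in LVPO and the 10 in controls, 6 libraries each, with exact two-sided permutation. Of these 20 pairs, 0 had a Pearson p under 0.05 after Benjamini-Hochberg adjustment over the 20, and 1 had one before it, HSPA4 and HSPA14 in LVPO (exact permutation p = 0.00556, adjusted 0.111). For both of these genes every LVPO library of S10 to S15 lay above every LVPO library of S01 to S06. Their pairs in LVPO are therefore given no pooled coefficient, and 3 libraries a series are too few for one. In controls, HSPA4 and PSMD14 had r = 0.61 and rho = 0.54 (exact permutation p = 0.228 and 0.297, adjusted 0.651 and 0.829). That r was -0.74 without the 2 libraries farthest from the HSPA4 median and 0.91 after median-of-ratios rescaling. The rescaling raised r for most of the 20 pairs, so the rise is not particular to HSPA4 and PSMD14.

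In controls, HSPA14 and DNAJB6 had r = -0.71 and rho = -0.54 (exact permutation p = 0.10 and 0.297, adjusted 0.589 and 0.829). Control replicate 3 had the highest HSPA14, at 39.0 CPM, and the lowest DNAJB6, at 94.6 CPM. Without the 2 libraries farthest from the HSPA14 median, r was -0.014, and after median-of-ratios rescaling of all 6 it was 0.017.

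The listed genes most like each of the 5 were found by Pearson r over the 12 libraries after the mean of each group was subtracted, as a description. Those values share libraries, depth and library series. HSPA4 was closest to HIF1A, the oxygen-regulated transcription factor subunit (r = 0.96), to CKAP4, an endoplasmic reticulum membrane protein (r = 0.94), and to the kinase MAP2K1 (r = 0.92). For HSPA4 and each of these genes, LVPO replicate 4 was the highest and control replicate 5 the lowest of the 12 libraries. These r values may rest largely on those libraries, and r without them was not computed. HSPA14 was closest to the chromatin protein HMGA1 (r = 0.88), the RNA cyclase RTCA (r = 0.87) and MOBKL3 (r = 0.84). For each of these genes, as for HSPA14, every LVPO library of S10 to S15 lay above every LVPO library of S01 to S06. PSMD14 was closest to the nuclear import receptor IPO5 (r = 0.86), the RNA-binding protein PCBP1 (r = 0.84) and the translation-associated GTPase HBS1L (r = 0.83). LVPO replicate 4 was the highest library for PSMD14, IPO5 and PCBP1, though not for HBS1L, and r without it was not computed. All 9 of these genes were, like the chaperone or proteasome gene beside them, listed as higher in LVPO.

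DNAJB6 was closest to the transcription factor ETV1 (r = 0.84), the sodium-proton exchanger SLC9A2 (r = 0.82) and the matrix protein FRAS1 (r = 0.82), all 3 listed as lower in LVPO while DNAJB6 was listed as higher. SLC9A2 averaged 0.70 CPM in LVPO and 2.36 CPM in controls, so its pattern rests on few reads. FBXO32 was closest to BMF, a BH3-only protein (r = 0.73), the sphingomyelin synthase SGMS1 (r = 0.73) and the phospholipase PLA2G4A (r = 0.72), all listed as lower. Control replicate 6, the library with the high FBXO32, was the highest control for each of them, at 73.2 CPM against 21.5 to 30.1 CPM for BMF, 111 against 28.4 to 66.7 CPM for SGMS1 and 61.5 against 26.3 to 59.0 CPM for PLA2G4A. Without that library r with FBXO32 was -0.098 for BMF, 0.33 for SGMS1 and 0.53 for PLA2G4A over the remaining 11 libraries. Among the 5 genes themselves, HSPA14 ranked 29 of 515 among the genes most like HSPA4 (r = 0.66), and PSMD14 ranked 23 among those most like HSPA14 (r = 0.63). HSPA4 and PSMD14 had r = 0.58. DNAJB6 had r = -0.49 with HSPA14, -0.041 with HSPA4, -0.036 with PSMD14 and 0.37 with FBXO32. FBXO32 had r = 0.16 with HSPA4, 0.042 with HSPA14 and 0.21 with PSMD14. These values pool the library series, which split the LVPO libraries of HSPA4 and HSPA14, so they are a description only.

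Related genes were counted with 18 lists of chaperones, proteasome subunits and degradation enzymes, which hold 430 annotated genes. Of these, 17 were listed, 8 as higher and 9 as lower in LVPO, but the 5 genes are among them because they were taken from the listed genes. Of the other 425 genes 12 were listed (2.82%, against 3.39% of all genes tested), 4 as higher and 8 as lower. List shares here and below are over annotated genes, whether or not the authors tested them. The 3.39% is over tested genes only, so the bases differ and untested genes lower the list shares. The chaperone lists held 5 listed genes of 122, of which HYOU1 and FKBP5 are not among the 5 genes. Without the genes of the report, 2 of 119 chaperone genes were listed (1.68%), 1 as higher and 1 as lower. Of 16 HSP70 and HSP110 chaperones 3 were listed, all as higher, but HSPA4 and HSPA14 among them were taken from the listed genes. The same holds for DNAJB6, the only listed gene of 46 J-domain proteins. No member was listed of the small heat shock proteins (10 genes), the chaperonins and prefoldin (17), the BAG and exchange factors (10) or the heat shock factors (5). At the 3.39% share of all genes tested, lists this short hold few listed genes or none, so nothing is read from the empty ones. A gene that is not listed may still have differed, and values of unlisted genes were not analysed here.

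The third listed HSP70-type gene was HYOU1, the HSP110 protein of the endoplasmic reticulum, with 50.7 ± 6.90 CPM in LVPO and 42.1 ± 4.52 CPM in controls (SD, n = 6 each). XBP1, a transcription factor of the unfolded protein response and 1 of 29 endoplasmic reticulum folding genes, had 115 ± 17.1 CPM in LVPO and 93.2 ± 9.14 CPM in controls. FKBP5, an HSP90 co-chaperone that binds steroid receptors, was lower on average, at 86.4 ± 39.1 CPM in LVPO and 158 ± 107 CPM in controls. Its control libraries spanned 37.2 to 300 CPM and enclosed every LVPO library, and the highest of them was control replicate 6.

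PSMD14 was the only listed gene of 22 in the regulatory particle of the proteasome, and of 17 core particle genes none was listed. NFE2L2, a transcription factor of the oxidative stress response counted with the proteasome activators and assembly factors, had 69.7 ± 8.90 CPM in LVPO and 86.5 ± 9.84 CPM in controls. Its log2 difference of -0.31 was 0.011 after median-of-ratios rescaling. FBXO32 was the only listed gene of 28 muscle ubiquitin ligases and atrophy regulators, a list that also holds TRIM63 (MuRF1) and the FOXO factors. None of 48 autophagy and lysosome genes or 11 calpains and caspases was listed. PSMD14 and FBXO32 were taken from the listed genes. At the share of 3.39% of all genes tested, lists of these sizes hold few listed genes or none, so nothing is read from these counts.

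Ubiquitin enzymes were listed in both directions. Of 69 annotated deubiquitinases outside the JAMM family, 6 were listed (8.70%, against 3.39% of all genes tested, a different base), 2 as higher and 4 as lower. The whole table has 141 higher and 375 lower. USP5, which takes apart free ubiquitin chains, had 75.5 ± 12.8 CPM in LVPO and 61.0 ± 7.94 CPM in controls, and USP15 had 51.4 ± 10.2 CPM in LVPO and 40.4 ± 7.31 CPM in controls (SD, n = 6 each). USP20 had 21.5 ± 5.29 CPM in LVPO and 33.8 ± 8.57 CPM in controls, and all 6 LVPO libraries were below every control. USP18, which removes the ubiquitin-like ISG15, had a ratio of LVPO to control means of 0.442, and of 0.942 without control replicate 6, which stood at 136 CPM. USP45 and USP54 had log2 differences of -0.40 and -0.40, the ligase scaffold CUL9 of -0.36 and the conjugating enzyme UBE2O of -0.25. After median-of-ratios rescaling these values were -0.089 for USP45, -0.087 for USP54, -0.048 for CUL9 and 0.068 for UBE2O, and that of USP20 was -0.32.

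**Figure D5:**
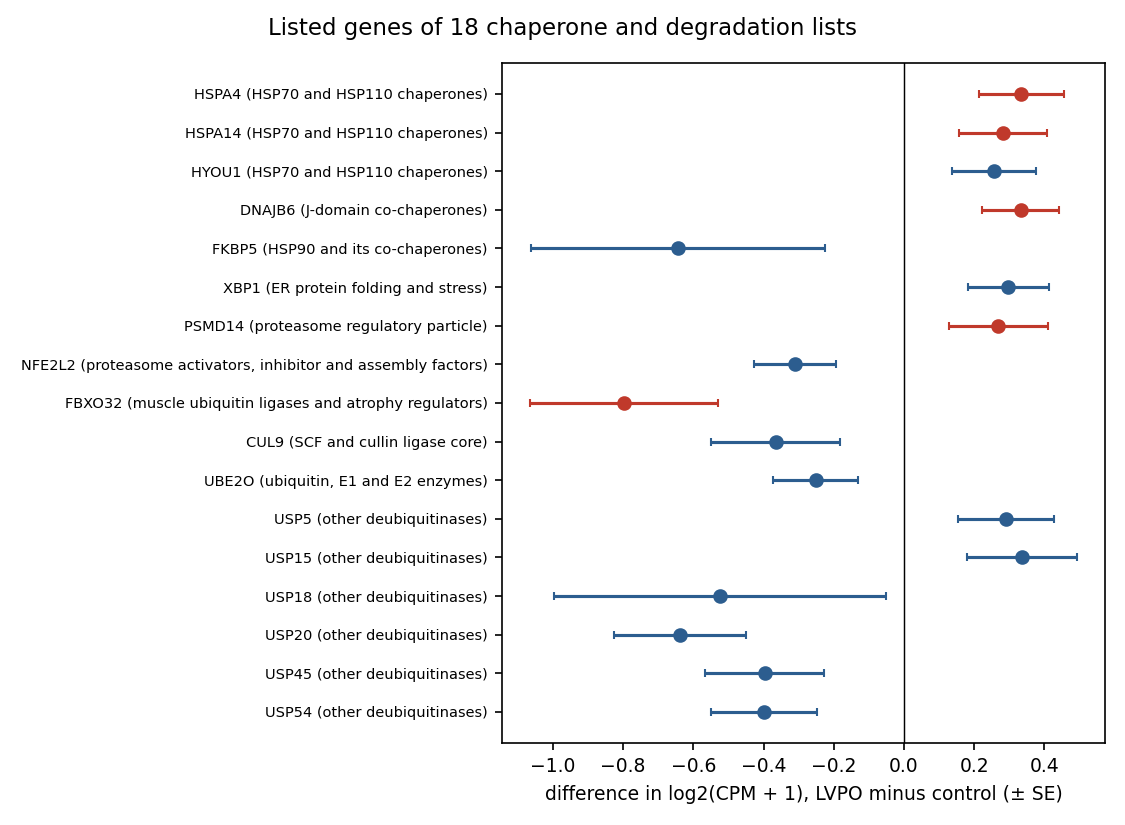
Difference in log2(CPM + 1) between LVPO and control, with bars of ± 1 SE, for the 17 listed genes of the 18 lists, with each gene's list in brackets. The 5 genes of the report are red. The 4 listed HSP70, HSP110 and J-domain genes lie between 0.26 and 0.33, and the degradation genes lie on both sides of 0.

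Depth and other library traits were as follows. Effective library size, found from the step between CPM values, ranged from 24.3 to 31.9 M reads in LVPO and from 19.5 to 30.2 M in controls. The fewest reads behind any value of the 5 genes were 672 (HSPA14), for which counting error alone has an SD of 3.86%. The part of depth in the values was not tested. By Dixon's criterion for a single value far above the rest of its group, LVPO replicate 3 stood apart for 30 of the 516 listed genes, LVPO replicate 4 for 19, control replicate 5 for 47 and control replicate 6 for 16, and each other library for at most 3. Cardiomyocyte markers could not be checked, since of 46 markers in 9 cell type lists only the endothelial receptor KDR was listed, at 150 ± 35.5 CPM in LVPO and 101 ± 27.5 CPM in controls. Of 10 annotated genes in a list labelled acute handling stress 3 were listed (30%, against 3.39% of all genes tested), ATF3, NR4A1 and NR4A3, all higher. FOS, FOSB, JUN, JUNB, EGR1, HSPA1A and DNAJB1 of that list were not. The label names no cause of these values, and nothing is read from the share of so short a list. The summed level of ATF3, NR4A1 and NR4A3 was 79.9 to 340 CPM in LVPO and 35.2 to 159 CPM in controls. The highest sums rest largely on NR4A3 at 237 CPM in LVPO replicate 3 and ATF3 at 84.5 CPM in control replicate 3. Without LVPO replicate 3 the NR4A3 ratio of means went from 3.20 to 1.91, and without control replicate 3 that of ATF3 went from 2.60 to 6.12. The part of cell types or handling stress in the values of the 5 genes was not tested.

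In the annotation of Sscrofa11.1 from NCBI RefSeq, HSPA4 lies on chromosome 2 from 135345724 to 135391112, HSPA14 on chromosome 10 from 46908161 to 46935323 and DNAJB6 on chromosome 18 from 1444737 to 1499904. FBXO32 lies on chromosome 4 from 15895875 to 15925929 and PSMD14 on chromosome 15 from 68107379 to 68208884. The 5 genes thus lie on 5 chromosomes. The span of PSMD14 overlaps TBR1 and a pseudogene, and whether reads were counted by strand is not stated, so its value is uncertain to that extent. The other 4 overlap no annotated gene. NFE2L2, FKBP5, USP54, HIF1A, MAP2K1, ETV1, PLA2G4A and PCBP1, named above, also overlap annotated neighbours and carry the same uncertainty.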

How the data were processed

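Polyadenylated RNA of pig heart was sequenced from directional libraries, per the labels' protocols. The submitters' processing notes name the read trimmer Trim Galore 0.4.5, the aligner STAR 2.7.2b, and, for handling and counting reads, SAMtools 1.5 and featureCounts from Subread 1.5.3, with the build Sscrofa11.1. The deposited table holds CPM values made by the authors for 12 libraries. It also holds the authors' log2 fold change and mean log2 CPM, a likelihood-ratio score of the authors' model, and the authors' unadjusted and adjusted p-values, as deposited. It lists genes with an unadjusted p under 0.05.

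Differences and their SE come from limma 3.58.1 (R 4.3.3, intensity trend) on log2(CPM + 1), which understates changes of low genes. Genes with at least 1 CPM in at least 6 libraries, 512 in all, were fitted together. All of them are listed genes, and listing favours a small spread within groups, so the SE may be too small. The design had assumed a table of all genes, so adjustment was made over the 15235 genes that the authors' p-values imply, unlisted genes counting as larger p. The group by library series term, which listing did not use directly, was adjusted over the fitted genes. Correlations used exact permutation (Python 3.11.15, SciPy 1.17.1). The limma step was also run on simulated data with known changes, independent normal values and no library series. That run adjusted over the fitted genes alone, so it does not check the adjustment over 15235 genes or the effect of listing. Effective library size is the library total that turns CPM into whole reads (95.8% of values within 0.02 reads, averaged over libraries), and no count model was fitted.

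The genes and lists were chosen with earlier results of these data known. Genes named are the 5 members, every listed gene of the 18 lists and marker lists, and the 3 listed genes most like each member. Older symbols were matched by hand where known, and 430 of 431 list genes were found in the annotation. Samples follow the group label, and the alternatives tried are given at the end.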

Additional observations from a re-analysis of the deposited data

Results flagged for a closer look

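For each named gene the highest and lowest library of each group were compared with the rest of the group by Dixon's criterion, in 72 groups of 6 libraries. It singled out 11 values, where chance gives about 1 in 20 independent groups of normally distributed values, or 3.6. The 72 groups are not independent, since some genes were named for their likeness to a member and so share its outlying library. The values are also plain CPM, so nothing is read from 11 against 3.6.

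Among the 5 genes, HSPA4 was at 178 CPM in LVPO replicate 4, with the other LVPO libraries at 125 to 143 CPM. FBXO32 was at 611 CPM in control replicate 6, with the other controls at 168 to 248 CPM.

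LVPO replicate 4 was also the highest of its group for HIF1A, at 126 CPM against 90.6 to 103 CPM, and for CKAP4, at 30.4 CPM against 18.7 to 22.7 CPM. Control replicate 6 was also the highest of its group for BMF, at 73.2 CPM against 21.5 to 30.1 CPM, and for USP18, at 136 CPM against 7.91 to 24.9 CPM. In control replicate 5, USP20 was high at 51.0 CPM against 28.5 to 32.7 CPM, and HIF1A was low at 57.5 CPM against 80.8 to 93.8 CPM. In LVPO replicate 3, NR4A3 was high at 237 CPM against 25.7 to 78.6 CPM, and USP5 was low at 49.9 CPM against 76.8 to 84.4 CPM. ATF3 was at 84.5 CPM in control replicate 3 and at 4.66 to 15.9 CPM in the other controls. The part that these libraries' other traits play in the values was not tested.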

How the results depend on the processing

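The sign of the log2 difference was kept by each of the 5 genes under every alternative run. Median-of-ratios rescaling gave 0.66 for HSPA4, 0.60 for HSPA14, 0.66 for DNAJB6 and 0.59 for PSMD14, and upper-quartile rescaling gave 0.55, 0.49 and 0.55 for the first 3. Within libraries S01 to S06 the differences were 0.10 for HSPA4, 0.059 for HSPA14 and 0.021 for PSMD14, and within S10 to S15 they were 0.57, 0.51 and 0.52. Leaving out each library in turn gave 0.25 to 0.37 for HSPA4, 0.23 to 0.33 for HSPA14, 0.28 to 0.37 for DNAJB6, -0.90 to -0.53 for FBXO32 and 0.17 to 0.36 for PSMD14. The lowest PSMD14 value was that without LVPO replicate 4 and the FBXO32 value nearest to 0 that without control replicate 6. The FBXO32 ratio of means ran from 0.489 to 0.705. Without LVPO replicate 4 and control replicate 6 together, an alternative chosen after seeing the data, the differences were 0.25 for HSPA4, 0.21 for HSPA14, 0.38 for DNAJB6, -0.55 for FBXO32 and 0.18 for PSMD14. The count of the 5 genes whose groups do not overlap was 0, 1 after median-of-ratios rescaling, and 0 to 2 when 1 library was left out, 2 without LVPO replicate 3. The limma count of 0 was 419 when adjusted over the listed genes alone, which is circular because each was listed on the same libraries. The control correlation of HSPA4 and PSMD14 was -0.74 without the 2 farthest libraries and 0.91 after median-of-ratios rescaling, and that of HSPA14 and DNAJB6 was 0.017 after median-of-ratios rescaling; the cause was not tested. No paired analysis was possible because the labels give no replicate numbers that tie an LVPO library to a control library. The fewest reads behind a value of the 5 genes were 672, and the part of depth was not tested.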
